A study of Homo sapiens with 2 samples.

Results

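The genes described here are 9 genes of the p53 pathway, chosen by name and with earlier results of these data known. They are the p53 inhibitors MDM2 and MDM4 and the p53 target genes CDKN1A, GADD45A, BAX, BBC3, TP53I3, SESN1 and ZMAT3. They were found by their Ensembl gene identifiers among the 57736 genes of the tables, and each of the 9 symbols matched a single row in both replicates. Poly(A)+ RNA of HEK293T cells was sequenced with 50 nt reads in 2 libraries of 1 group, here called replicate 1 and replicate 2. Both are labelled as wild type, received no treatment, and were harvested at 80% confluency after growth in DMEM with 10% serum, under 5% CO2 and at 37 °C. HEK293T is a human line made from embryonic kidney cells with a piece of adenovirus DNA and later given the large T antigen of the virus SV40, so both libraries share these insertions and neither is free of them. With 1 group there was no comparison between conditions: levels were compared between genes within a library, and the libraries were compared with each other. The labels do not say whether the replicates came from separate cultures, so any difference between these samples may be technical. The p-values below come from a test of 1 library against the other that covers counting error only, with no estimate of the spread between samples.

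The protein p53 is a transcription factor that is held at a low level in unstressed cells and accumulates after DNA damage or other stress. MDM2 is the ubiquitin ligase that marks p53 for degradation and is itself a p53 target, which closes a negative feedback loop, while MDM4 is a related protein that binds p53 and masks its activation domain. Targets of p53 act in cell cycle arrest, apoptosis, DNA repair and metabolism. As background, the large T antigen binds p53 and blocks its transcriptional activity, and the p53 pathway is for that reason often described as impaired in lines that carry it. The level of large T RNA was not analysed here, and no p53-competent cells were measured for comparison.

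The p53 protein binds a 20-base element made of 2 abutting blocks of 10 bases, each of which fits the p53 consensus block on both strands, so that a scan of 1 strand covers both. The window from 2500 bases upstream to 2500 bases downstream of the annotated start of the Ensembl canonical transcript (5001 bases, GRCh37) was searched for the element with at most 2 letters off. It was found for 8 of the 9 genes. The best match of each is shown, and whether it is a p53 site known for that gene was not tested. Blocks with bases between them were not searched for. Each is read 5′ to 3′ on the strand of its gene, with capitals for letters that fit the consensus and lower case for letters that do not.
ZMAT3: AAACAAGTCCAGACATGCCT
GADD45A: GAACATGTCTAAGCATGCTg
CDKN1A: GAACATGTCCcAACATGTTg
BAX: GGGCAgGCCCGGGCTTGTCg
BBC3: GGGtcTGCCCAGGCATGTCC
TP53I3: AtACATcCTCAGACATGTTT
MDM2: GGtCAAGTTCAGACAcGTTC
MDM4: GtGCTTGTTTGAAaATGCTT

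The ZMAT3 element at chr3:178787976-178787995 (minus strand) fitted at every position and lay in an intron, 1602 bases downstream of the start. The GADD45A element at chr1:68152458-68152477 (plus strand) was 1 letter off and lay in an intron, 1574 bases downstream. The other 6 were each 2 letters off. These comprised intronic matches for MDM2 at chr12:69202703-69202722 (plus strand, 746 bases downstream) and MDM4 at chr1:204486061-204486080 (plus strand, 527 bases downstream). The BAX match at chr19:49458470-49458489 (plus strand, 338 bases downstream) and the BBC3 match at chr19:47735825-47735844 (minus strand, 1388 bases upstream) lay within an exon of at least 1 transcript. The CDKN1A match at chr6:36644226-36644245 (plus strand) was 1 of 2 equally good ones and overlapped the 5′ end of the annotated gene, 2265 bases upstream of the canonical start. The TP53I3 match at chr2:24309651-24309670 (minus strand) lay outside the gene, 1966 bases upstream. SESN1 had no match with at most 2 letters off, which says only that these letters are not in this window.

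Among 19110 windows of protein-coding genes, 2245 held a match of the same quality, or 11.7%, against 8 of the 9 genes (88.9%). Of the windows of 12269 protein-coding genes detected in these cells, 11.1% held one. Among the other listed p53 targets 18 of 49 windows held a match (36.7%), and among the other listed genes that control p53 1 of 19 did (5.26%). With at most 3 letters off, the same 8 genes (88.9%) held a match, but so did 66.6% of coding windows, so the contrast depends on the limit chosen. A match with at most 1 letter off was found in 0.952% of coding windows and in 2 of the 9 genes, and a match with no letter off in 13 windows, which include that of ZMAT3. The 9 genes are textbook members of the pathway, several known for p53 sites, so these shares describe the letters around genes named for their part in it. A match is not a bound site, and no binding was measured in these libraries.

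All 9 genes were detected, with a TPM (RNA abundance per transcript length, as a share of the library) of at least 1 in both replicates, where 63.7% of the 19391 protein-coding genes were. As the 9 genes were not chosen blind to these data, this contrast was not tested. Their mean TPM spanned 14.9-fold. The inhibitor gene MDM2 and the apoptosis gene BAX stood together at the top and held 63.7% of the summed TPM of the 9 genes in replicate 1 and 66.7% in replicate 2. MDM4 followed, and the other 6 targets lay between 5.31 and 14.0 TPM. The median of the 9 genes was 13.7 TPM, beside 21.2 TPM for the detected protein-coding genes. MDM2, BAX and MDM4 lay above that median and the other 6 below it.

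**Figure D1:**
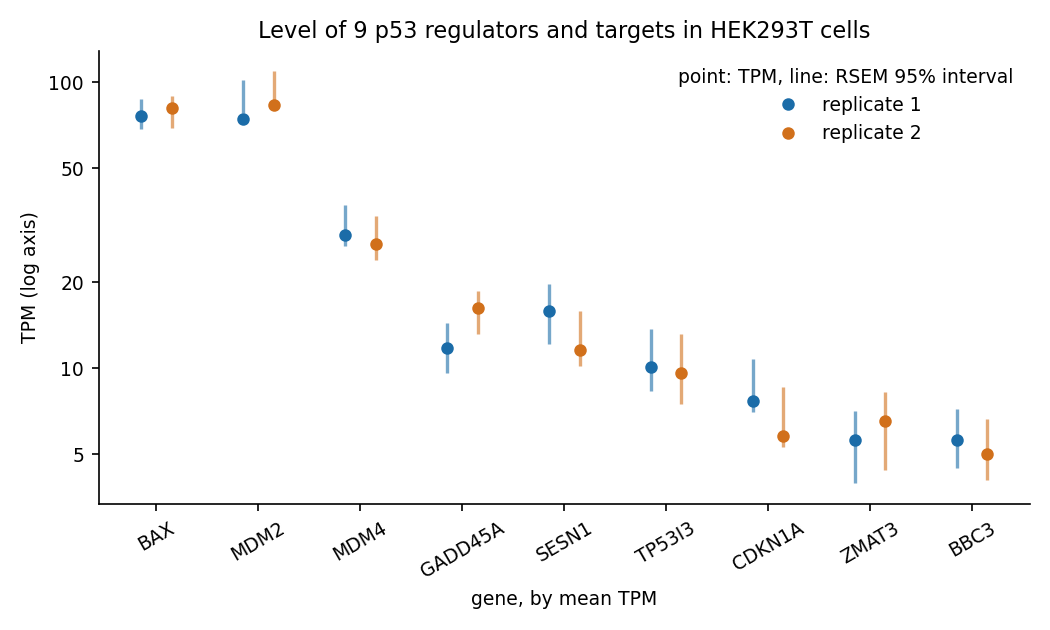
Level of each gene in TPM (log axis) in replicates 1 and 2 of HEK293T cells, with points for replicates and lines for the 95% intervals that RSEM gives for each library. BAX and MDM2 lie near 79 TPM, MDM4 near 28 TPM and the other 6 genes from 5.31 to 14.0 TPM on average, and the TPM of MDM2 sits below its own interval in both replicates.

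MDM2 (ENSG00000135679, GRCh37 chr12:69201957-69239324, plus strand) had 74.4 TPM in replicate 1 and 82.9 in replicate 2, or 78.6 ± 6.05 TPM (SD, n = 2). Its estimated counts were 1522 and 1503, the most of the 9 genes. It ranked above 85.4% of detected protein-coding genes. The TPM lay below the interval that RSEM drew around it in both libraries, 78.1 to 102 TPM in replicate 1 and 86.3 to 109 in replicate 2. Its posterior mean TPM, which RSEM estimates along with the interval, was 89.9 and 97.5. The other 8 genes lay inside their intervals, and 693 detected protein-coding genes (5.61%) lay below theirs in both libraries as MDM2 did.

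The MDM2 locus is the one of the 9 where annotated neighbours shared many reads. A processed pseudogene on the same strand (ENSG00000256664, chr12:69235726-69236164) has all its 439 bases inside MDM2 exons and was given 43.5 and 55.3 TPM, from estimated counts of 127 and 155. A long non-coding RNA on the opposite strand (ENSG00000257181, chr12:69235068-69237017) has all its 785 exon bases over MDM2 exons and was given 24.4 and 33.2 TPM, from estimated counts of 134 and 175. Together these neighbours held 14.6% of the counts of the 3 genes in replicate 1 and 18.0% in replicate 2. The posterior SD of the MDM2 count was 14.3 and 13.5 reads, 0.939% and 0.899% of the count. Over 830 protein-coding genes with a mean count within a factor of 1.25 of that of MDM2, the median was 0.465 and 0.415 reads. The sources used here do not say whether counting took account of strand, so reads of MDM2 and of these neighbours cannot be told apart over the shared bases. A further gene on the opposite strand, which encodes carboxypeptidase M, overlapped MDM2 by 133 exon bases at 2.48 and 1.43 TPM.

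MDM4 (ENSG00000198625, chr1:204485507-204527248, plus strand) had 29.2 and 27.1 TPM, or 28.2 ± 1.50 TPM (SD, n = 2), from estimated counts of 1138 and 956. It overlapped no exon of another gene and ranked above 58.6% of detected protein-coding genes. The TPM ratio of MDM2 to MDM4 was 2.54 in replicate 1 and 3.06 in replicate 2, or 2.80 ± 0.364 (SD, n = 2). MDM2 was thus above MDM4 in both libraries, and neither their replicate values nor their intervals overlapped.

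The apoptosis targets BAX and BBC3 stood at opposite ends of the order. BAX (ENSG00000087088, chr19:49458072-49465055, plus strand), which encodes a protein that forms pores in the outer mitochondrial membrane, had 76.3 and 81.45 TPM, or 78.9 ± 3.66 TPM (SD, n = 2). Its counts were 590 and 535. BBC3 (ENSG00000105327, chr19:47724079-47736023, minus strand), which encodes the BH3-only protein PUMA that acts upstream of BAX, had 5.60 and 5.01 TPM, or 5.31 ± 0.417 TPM (SD, n = 2). The counts of BBC3 were 72 and 64, the fewest of the 9 genes in both libraries. The ratio of BAX to BBC3 was 13.6 and 16.3, or 14.9 ± 1.87 (SD, n = 2), so the gap was present in both libraries and larger than the spread between them. BAX and MDM2 could not be ordered: BAX was higher in replicate 1 and MDM2 in replicate 2. On the posterior mean TPM, MDM2 at 93.7 lay above BAX at 78.4.

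TP53I3 (ENSG00000115129, chr2:24300303-24308731, minus strand), which encodes a quinone oxidoreductase-like enzyme tied to oxidative stress in p53-induced apoptosis, had 10.1 and 9.66 TPM, or 9.88 ± 0.304 TPM (SD, n = 2). These values came from estimated counts of 92.6 and 68.8. Its TPM therefore differed little while its count in replicate 1 was the larger one. The mean transcript length that RSEM used for the gene was 1278 nt in replicate 1 and 1039 nt in replicate 2. FAM228B on the opposite strand shares 80 exon bases with TP53I3 and had 4.37 and 3.86 TPM.

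The cell cycle arrest targets CDKN1A and GADD45A had differences of opposite sign between the libraries, neither of which passed the adjusted test given below. CDKN1A (ENSG00000124762, chr6:36644237-36655114, plus strand), which encodes the cyclin-dependent kinase inhibitor p21, had 7.67 and 5.81 TPM, or 6.74 ± 1.32 TPM (SD, n = 2), from counts of 122 and 89. GADD45A (ENSG00000116717, chr1:68150884-68154017, plus strand), which encodes a stress protein that binds PCNA and p21, had 11.7 and 16.2 TPM, or 14.0 ± 3.18 TPM (SD, n = 2), from counts of 117 and 153. GADD45A was the higher of the pair in both libraries, with a ratio to CDKN1A of 1.53 in replicate 1 and 2.80 in replicate 2. Their RSEM intervals overlapped in replicate 1, so the pair was not called separate. CDKN1A ranked above 22.2% of detected protein-coding genes and GADD45A above 37.9%.

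SESN1 (ENSG00000080546, chr6:109305512-109416049, minus strand), which encodes a sestrin that restrains mTORC1 signalling and acts in antioxidant defence, had 15.9 and 11.6 TPM, or 13.7 ± 3.02 TPM (SD, n = 2). Its estimated counts went the other way, with 231 in replicate 1 and 240 in replicate 2. The mean transcript length used for the gene was 2001 nt in replicate 1 and 2934 nt in replicate 2, and its 7 transcripts run from 381 to 5664 nt. On the log2 scale the difference, replicate 2 minus replicate 1, was 0.13 by depth-scaled counts and -0.42 by TPM with a pseudocount of 1. Of the detected protein-coding genes, 2.79% had a change in length as large. By TPM, SESN1 was higher than GADD45A in replicate 1 and lower in replicate 2.

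**Figure D2:**
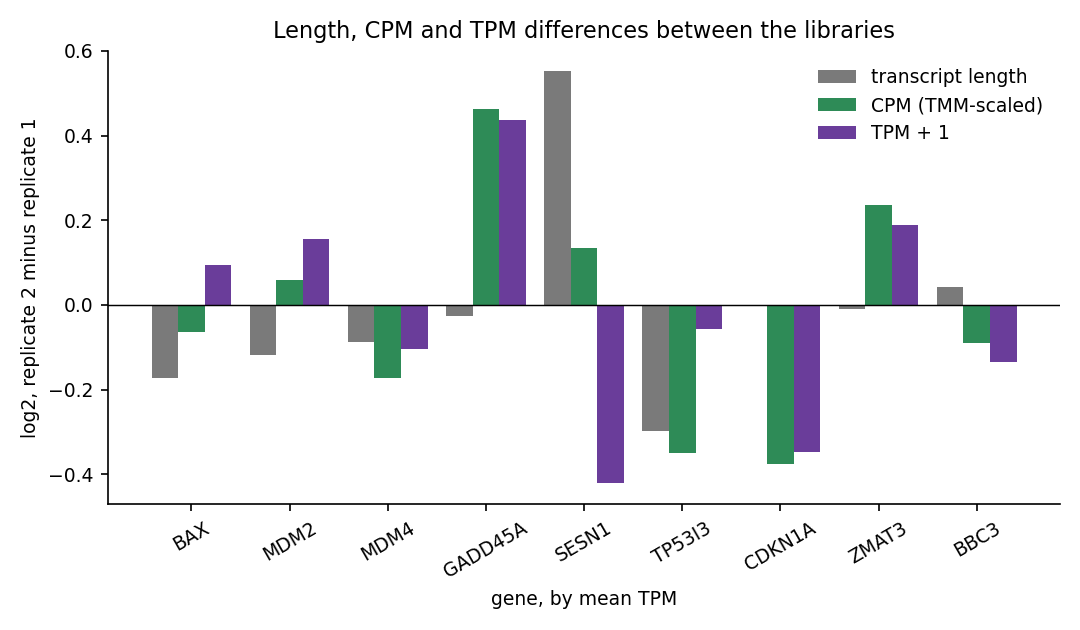
Difference between the libraries for each gene, replicate 2 minus replicate 1 on the log2 scale, by CPM (counts scaled to library size), by TPM + 1 and for the transcript length used. SESN1 lies at 0.13 by counts and -0.42 by TPM with a length difference of 0.55, and TP53I3 at -0.35 by counts and -0.06 by TPM with a length difference of -0.30.

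ZMAT3 (ENSG00000172667, chr3:178677909-178790003, minus strand), which encodes a zinc finger protein that binds RNA, had 5.61 and 6.54 TPM, or 6.08 ± 0.658 TPM (SD, n = 2). Its counts of 208 and 232 were above those of CDKN1A, whose TPM was similar, at transcript lengths of 5021 and 4989 nt for ZMAT3 against 2180 nt for CDKN1A. ZMAT3 overlapped no exon of another gene. It ranked above 20.4% of detected protein-coding genes, between CDKN1A and BBC3.

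The order from high to low was BAX, MDM2, MDM4, GADD45A, SESN1, TP53I3, CDKN1A, ZMAT3 and BBC3. Neighbours were called separate where neither their replicate values nor their RSEM intervals overlapped. By this rule 2 of the 8 neighbouring pairs were separate, MDM2 over MDM4 and MDM4 over GADD45A, and the other 6 were not. Of all 36 pairs, 25 were separate. BAX and MDM2 were separate from each of the other 7 genes, and MDM4 from each of the 6 below it. Among those 6, GADD45A and SESN1 were each separate from ZMAT3 and BBC3, and TP53I3 from BBC3. The coefficient of variation over the 2 replicates ran from 3.08% for TP53I3 to 22.7% for GADD45A. In the authors' table of pooled reads, the TPM of each of the 9 genes lay between its replicate values.

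**Figure D3:**
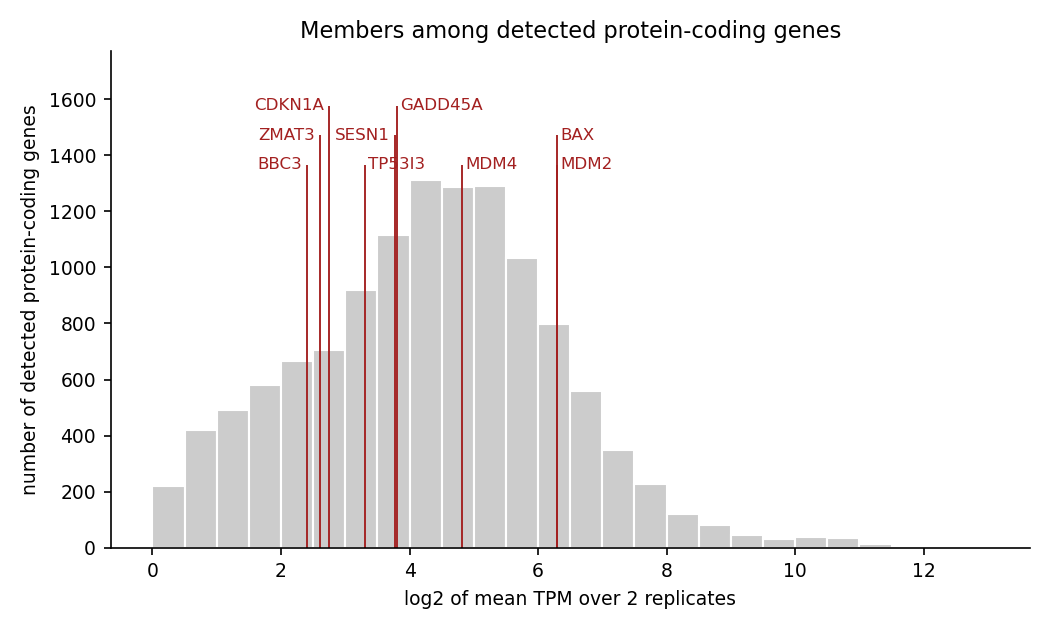
Distribution of the log2 mean TPM of 12345 detected protein-coding genes of HEK293T cells (grey bars, number of genes), with a line at each of the 9 genes. BAX and MDM2 rank above 85.5% and 85.4% of these genes, MDM4 above 58.6% and the other 6 above 18.3% to 37.9%.

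For each gene the counts of the libraries were set against each other, after scaling for depth, in a two-sided exact binomial test with Benjamini-Hochberg adjustment over all 17920 tested genes. None of the 9 genes differed at an adjusted p of 0.05, where 3.88% of the tested genes did. At an unadjusted p of 0.05, 2 of the 9 differed, MDM4 and GADD45A, where 13.3% of the tested genes did. The libraries thus differ by more than the test's counting error in many genes. Of the genes with whole counts in both libraries, a set added after seeing the data, 0.818% passed the adjusted test. Whether the sharing of reads adds to the differences was not tested. GADD45A was higher in replicate 2 by 0.46 on the log2 scale of CPM (exact binomial p = 0.00879, adjusted p = 0.138). MDM4 was lower in replicate 2, with a log2 difference of -0.17 (exact binomial p = 0.00627, adjusted p = 0.110). With DESeq2 size factors in place of TMM scaling the adjusted p of MDM4 was 0.0471, which passes, and over all settings tried the lowest adjusted p among the 9 genes ran from 0.0471 to 0.235. The adjusted p of the other 7 genes lay between 0.418 for CDKN1A and 0.982 for BBC3.

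Against protein-coding genes of a similar count, 7 of the 9 genes lay inside the central 95% of differences and 3 of them, MDM2, SESN1 and BBC3, inside the central 50%. GADD45A lay above the band, which ran from -0.33 to 0.38 over 1972 genes with a mean count of 128 to 256. Its own mean count of 135 was near the lower edge of that bin. MDM4 lay just below its band of -0.16 to 0.19 over 1396 genes with a mean count of 1024 to 2048. Its mean count of 1047 was also near the lower edge. The next lower bins would hold both genes, with bands of -0.50 to 0.49 for GADD45A and -0.20 to 0.24 for MDM4. Both placements outside the band thus depend on the bin edges. CDKN1A at -0.37 and TP53I3 at -0.35 lay inside a wider band of -0.50 to 0.49, drawn from 1330 genes with a mean count of 64 to 128. The biological coefficient of variation, the spread beyond counting error as estimated by edgeR, was 0.0454 over the 14993 genes that passed a filter on low counts. A difference of the size seen for CDKN1A lay inside the band of its bin, while one of similar size would lie outside the band for MDM2 or MDM4. What size of difference could be detected at each count was not tested.

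**Figure D4:**
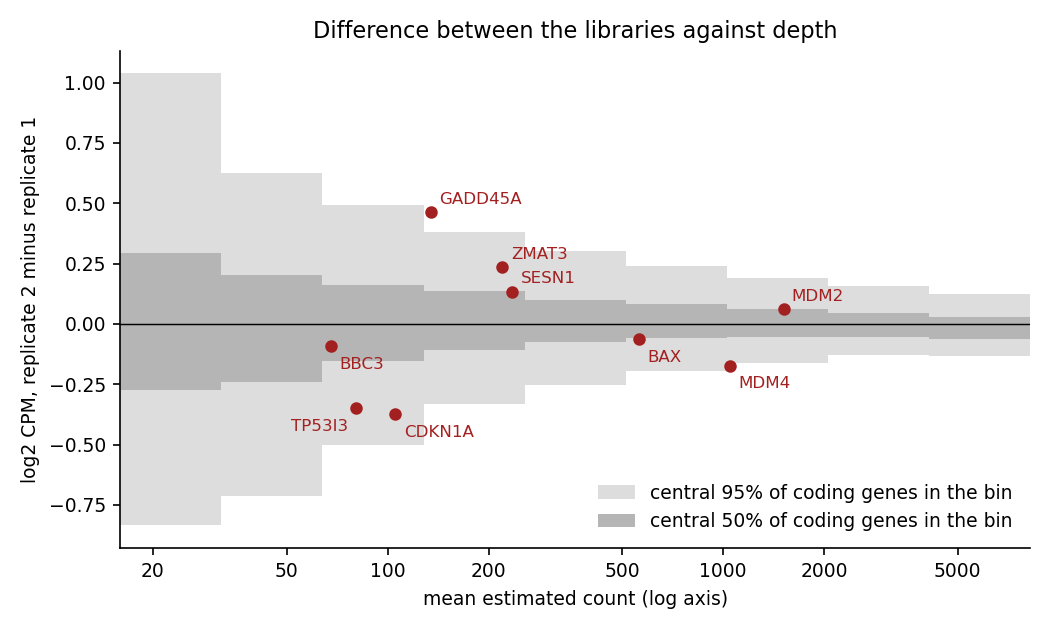
Log2 difference in CPM, replicate 2 minus replicate 1, against the mean estimated count (log axis) for the 9 genes (points), with the central 95% and central 50% of protein-coding genes in bins of count (light and dark grey). GADD45A at 0.46 and MDM4 at -0.17 lie outside the light band of their bins, and the other 7 genes lie inside. GADD45A and MDM4 lie near the lower edge of their bins, and the light band of the next lower bin would hold each.

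For BAX, CDKN1A, BBC3, GADD45A and ZMAT3 both counts were whole numbers with a posterior SD of 0, so RSEM recorded no uncertainty from shared reads. Whole counts in both libraries were common, at 50.6% of detected protein-coding genes. Among protein-coding genes of like count, 39.0% (for BAX) to 49.1% (for BBC3) had a posterior SD of 0 in both libraries. Among the other 4 the posterior SD was largest for MDM2, as given above, and reached 1.25 and 1.36 for SESN1, 0.68 and 0.45 for TP53I3 and 0.17 and 0.46 for MDM4. Of the overlapping genes outside the MDM2 locus, FAM228B held the most reads, with estimated counts of 47.4 and 38.2 over its whole length beside the 92.6 and 68.8 of TP53I3. How many of these lay in the 80 shared bases was not tested. SESN1 shares 363 exon bases with a long non-coding RNA on the opposite strand (ENSG00000271730) that had 0 and 0.43 TPM, and BBC3 shares 80 bases with MIR3191 on the opposite strand, which had 0 counts in both libraries. MDM4, BAX, GADD45A and ZMAT3 had no overlapping exon. CDKN1A shares 146 exon bases with DINOL on the opposite strand, a gene that had no row. The posterior SD of 0 of CDKN1A therefore does not cover reads shared with DINOL.

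The other genes of the pathway were taken from 6 lists by role, which hold 69 further genes with a row. Of these, 61 were detected (88.4%). The median was 17.5 TPM over all 69 genes and 21.5 TPM over the detected ones, beside 21.2 TPM for detected protein-coding genes. The 5 lists of p53 targets held 50 genes beside the 7 targets above, and 42 of the 50 were detected (84%). Their median was 10.7 TPM over all 50 and 13.9 TPM over the detected ones. Between the libraries, 2 of the 63 genes tested differed at an adjusted p of 0.05 (3.17%), both of them control genes, and 0 of 44 targets. At an unadjusted p of 0.05 in the exact binomial test, 6 of the 63 genes differed (9.52%), among them 2 of the 44 targets (4.55%). Both shares of the 63 lie near or below those of all tested genes, 3.88% and 13.3%.

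All 19 of the other genes that control p53 were detected, with a median of 40.7 TPM. The highest was NPM1, a nucleolar protein that binds the MDM2 inhibitor ARF, at 3467 and 3265 TPM. Next came RPL5, a ribosomal protein that binds and inhibits MDM2, at 1832 and 1798 TPM. The lowest was the damage kinase ATR, at 15.9 and 18.1 TPM, so that MDM4 lay in the lower part of this list and MDM2 above its median. Chosen after its values were seen, CDKN2A, the gene that encodes ARF and the kinase inhibitor p16, had 308 and 297.5 TPM, above MDM2 in both libraries. The genes that differed between the libraries, also chosen after their values were seen, were RPL11 with a log2 difference of -0.10 (exact binomial test, adjusted p = 0.00429) and the kinase gene PRKDC with 0.10 (adjusted p = 1.7e-05). Both differences were small and came from high counts, 6929 and 6124 for RPL11 and 12374 and 12538 for PRKDC, and these p-values again cover counting error only.

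In the list of cell cycle arrest targets 9 of 11 genes with a row were detected. CCNG1, which encodes cyclin G1, was the highest with 114 and 104 TPM, and GTSE1, which encodes a protein that binds p53 and microtubules, followed with 56.6 and 49.45 TPM. CDKN1A lay below the median of this list (9.37 TPM) and GADD45A above it. PLK3 was the lowest detected gene at 1.81 and 2.75 TPM. PLK2, with 1.42 and 0.71 TPM from 5 and 3 counts, fell short in replicate 2, and SFN, which encodes 14-3-3 sigma, was not detected with 2 and 0 counts. A count of 0 still allows up to 3 counts in a library, a limit of 0.283 CPM in replicate 1 and 0.297 CPM in replicate 2 that covers counting error only.

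Of 16 apoptosis targets 14 were detected, and the median of all 16 was 10.5 TPM. BAX was the highest of them and the nuclease gene AEN followed at 37.5 and 38.0 TPM, so that BAX lay above every other listed apoptosis target in both libraries. TP53I3 lay just below the median of the list and BBC3 further down. The lowest detected gene was the decoy receptor gene TNFRSF10C, at 1.08 and 1.21 TPM. TP53AIP1, with 1 count in each library, and the death receptor gene TNFRSF10A, with 0 in both, were not detected.

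Of 10 metabolism and antioxidant targets 9 were detected, and the median of all 10 was 11.5 TPM. GPX1, a glutathione peroxidase, had 177 and 168 TPM, and SESN2, another sestrin gene, had 34.7 and 35.3 TPM. The lowest detected was the glutaminase gene GLS2 at 5.89 and 6.48 TPM, and the autophagy gene DRAM1 at 0.75 and 1.55 TPM was below the threshold in replicate 1. All 7 DNA repair targets were detected, from PCNA, the replication clamp, at 222 and 218 TPM and the damage sensor gene XPC at 28.7 and 29.6 TPM down to DDB2 at 8.65 and 6.53 TPM. Of the 13 other targets, among them ZMAT3, 10 were detected, and the median of all 13 was 6.08 TPM, the value of ZMAT3 itself. RPS27L, a ribosomal protein gene, at 36.3 and 37.1 TPM and CYFIP2 at 34.3 and 38.7 TPM led this list, and SPATA18 at 1.92 and 1.68 TPM was the lowest detected. The cytokine gene GDF15, with 1 count in each library, EDA2R, with 6 and 8, and TRIM22, with 0 and 4, were not detected.

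**Figure D5:**
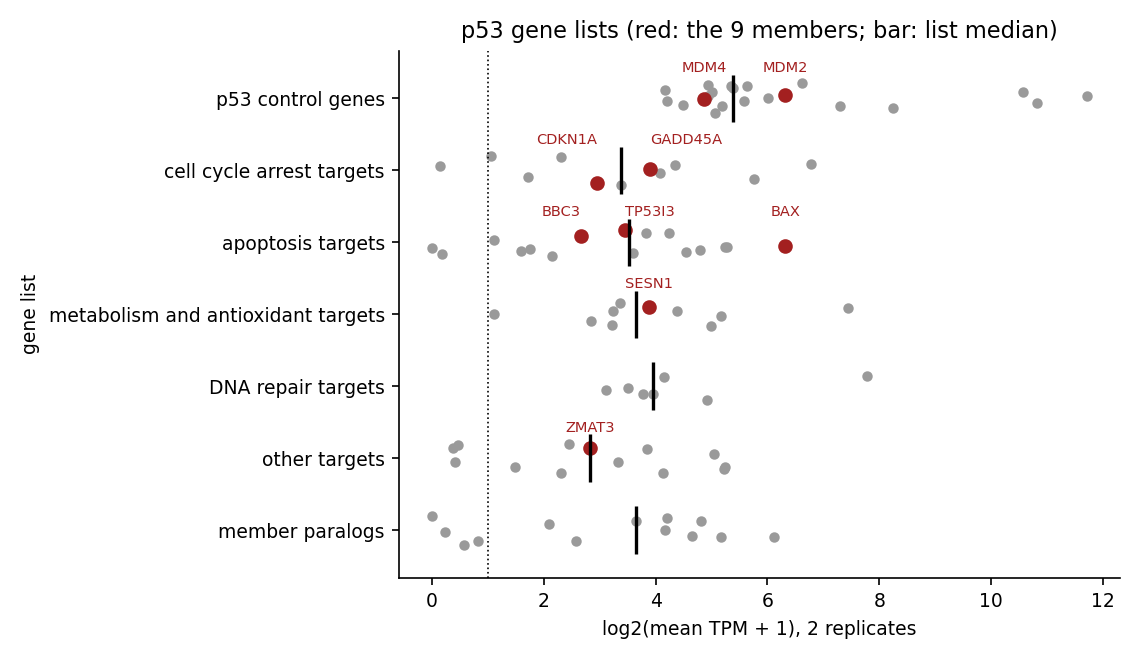
Mean TPM over 2 replicates, as log2(TPM + 1), of the genes of 6 p53 lists and of the genes listed as paralogs of the 9 genes. The 9 genes are in red, with a bar at the median of each list and a dotted line at 1 TPM. The control genes have a median of 40.7 TPM with MDM2 above it and MDM4 below, and BAX is the highest of the apoptosis targets.

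The genes listed as paralogs of the 9 genes were set beside them, and only the listed genes were ranked. Among the inhibitors of cyclin-dependent kinases, CDKN1B (p27) had 17.0 and 17.6 TPM, above CDKN1A in both libraries, and CDKN1C (p57) had 2.75 and 3.80 TPM, below it. GADD45A was the highest of its family, with GADD45B at 5.74 and 4.17 TPM and GADD45G at 0.66 and 0.30 TPM. BAX exceeded BAK1, the other pore-forming effector, which had 29.6 and 24.9 TPM, and BOK, which had 0.67 and 0.86 TPM. SESN2 was above SESN1 in both libraries, and SESN3, at 11.1 and 12.1 TPM, was below SESN1 in replicate 1 and above it in replicate 2. Of the listed genes that share the ZMAT name, ZMAT2, at 69.9 and 67.3 TPM, and ZMAT5, at 23.6 and 24.45 TPM, were above ZMAT3. ZMAT1, at 0.17 and 0.18 TPM, and ZMAT4, at 0 in both, were below it. How closely these genes are related to ZMAT3 was not tested. CRYZ, a quinone oxidoreductase gene related to TP53I3, had 17.5 and 16.3 TPM, above TP53I3 in both libraries.

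The libraries held 10593491 and 10104118 estimated counts. Of 10 markers of kidney 2 were detected, LRP2 at 8.28 and 9.96 TPM and PAX2 at 4.34 and 2.47 TPM, while 4 were at 0 in both libraries, so most defining markers of differentiated kidney were absent or nearly so. Of 7 neuronal markers 4 were detected, led by UCHL1 at 251 and 256 TPM. The others were far lower, NEFM at 9.93 and 11.1, SYP at 9.51 and 8.28 and TUBB3 at 6.67 and 6.48 TPM. ELAVL4 and SNAP25, each with 0 and 1 counts, and STMN2, with 0 in both libraries, were not detected. Of 9 markers of connective tissue, blood, endothelium and liver only the collagen gene COL1A1 was, at 10.3 and 7.51 TPM. In bulk RNA, fewer cells that express a gene and less of its RNA per cell cannot be told apart, and this holds for each level given here.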

How the data were processed

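The 2 libraries form 1 group of untreated HEK293T cells and were made from poly(A)+ RNA. Per the submitters' processing notes, the authors used Trimmomatic 0.36 for trimming and STAR 2.6.1c for alignment to GRCh37 (hg19). The notes name RSEM 1.3.1, whose columns the deposited tables have, while the study's methods give featureCounts with Ensembl release 87 genes as the counting step. The tables were read as RSEM output. Deposited estimated counts share a read among the genes it fits. The deposited TPM and FPKM values are levels per transcript length. The authors also deposited scores of uncertainty, the posterior SD of each count and a 95% interval of each TPM. A table of pooled reads was used only as the authors' values. The sources used here do not state the strand setting.

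Gene identifiers were matched to symbols and GRCh37 coordinates with GENCODE release 44 lifted to GRCh37 (55501 of 57736, 96.1%). The symbols PTPRV, SCO2, NEFL and PECAM1 of the lists matched no row used here. The gene for p53 itself is not reported here. The 9 genes and the lists were chosen with earlier results of these data known.

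Estimated counts were rounded, scaled by TMM (edgeR 4.0.16, R 4.3.3) and compared between libraries by a two-sided exact binomial test (scipy 1.17.1) where both counts summed to 10 or more, with Benjamini-Hochberg adjustment. The test compares these libraries, not conditions, and covers counting error only. Log2 differences in CPM used 0.5 added counts. Detection needed a TPM of 1 or more in each replicate. The dispersion estimate used an intercept-only design. The test was tried on counts simulated with counting error only, which leaves out any further spread between these libraries. The motif scan was tried on random sequences with a planted element. Named genes of each p53 list were the 2 highest, the lowest detected and those with a TPM under 1 in a replicate. All listed paralogs, all overlapping genes and all neuronal markers with a row were named too. Of the markers of kidney and of other cell types only the detected ones were named. Alternatives were DESeq2 1.42.0 size factors, total counts, other count and TPM thresholds, posterior means, FPKM, rescaling to protein-coding genes and leaving out each replicate.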

Additional observations from a re-analysis of the deposited data

How the results depend on the processing

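The median level of the 9 genes was 13.7 TPM and became 19.7 when TPM was rescaled to protein-coding genes. It was 13.9 with the posterior mean TPM, 9.70 in FPKM, and 11.6 to 11.7 without either replicate. The middle gene changed with the setting: it was SESN1 on the mean TPM and in replicate 2, and GADD45A in replicate 1. The median percentile of the 9 genes, 37.5 among detected protein-coding genes, became 60.2 among all protein-coding genes. It was 44.9 with the posterior mean, 35.2 with FPKM, and 34.7 to 34.8 without either replicate. The number of the 9 genes that differed between the libraries, 0 at an adjusted p of 0.05, became 1 with DESeq2 size factors (MDM4, adjusted p = 0.0471, exact binomial test). At a TPM of at least 5, 1 kidney marker was detected, and at a TPM of at least 0.1, 6 markers of other cell types were, or 2 to 3 without either replicate. Chosen after seeing the data, a limit of 1 letter off gave consensus matches in 0.952% of coding windows and 2 of the 9 genes, and a limit of 3 gave 66.6% and 8 of the 9, which leaves a much smaller contrast. The cause of these shifts was not tested. Those that a threshold, a scale or a change of the middle gene makes by its own construction are the exception. The TPM ratios of MDM2 to MDM4, BAX to BBC3 and CDKN1A to GADD45A stayed within their SD with the posterior mean TPM. The other settings could not move them beyond it. Ratios in FPKM equal those in TPM within a library, and each of 2 values lies within their SD of the mean. Numbers of detected genes in the p53 and paralog lists changed by at most 1.5 times, such as 14 to 10 apoptosis targets at a TPM of at least 5 and 9 to 12 paralogs at 0.1. Genes called between the libraries numbered 696 of 17920, but 448 of 18205 with posterior mean counts and, added after seeing the data, 71 of 8675 among genes with whole counts only. Leaving out a replicate leaves no test between libraries. No paired analysis was possible because both libraries belong to 1 group. Depth limits the genes with fewest reads, BBC3 and TP53I3.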
